A study of Mus musculus with 8 samples.

Results

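The long noncoding RNAs examined in the developing mouse retina were Malat1, Neat1, Miat, Meg3, Rian, Mirg, Tug1, Six3os1 and Snhg11. They were taken by symbol, and all 9 members were found among the 21827 genes of the tables, each as 1 row of the 23021 rows. Whole retinas at E15 and E18, and retinal cells sorted by the surface protein Cd73 at P2, P5 and P8, were each sequenced as 1 library, 8 libraries in all. Every library came from slc:ICR mice with no transgene or treatment, and the sorted cells were taken from pooled retinas dissociated with trypsin. Cd73, encoded by Nt5e, marks rod precursors and rods, so Cd73-positive cells (Cd73PC) are a rod lineage fraction, whereas Cd73-negative cells (Cd73NC) are a mixture of the remaining cells of the retina. The embryonic libraries were made from unsorted tissue, so age and sorting cannot be told apart between E18 and P2.

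Long noncoding RNAs are transcripts that act as RNA and not through a protein. Some stay in the nucleus, such as Malat1 and Miat, and Neat1 is the scaffold of the nuclear bodies called paraspeckles. Meg3, Rian and Mirg are expressed from the maternal chromosome of the imprinted Dlk1-Dio3 region and carry microRNAs and small nucleolar RNAs in their introns, whereas Tug1, Miat and Six3os1 have been studied for roles in retinal cell development.

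The members lie on 6 chromosomes of the mm9 build that the tables use. Malat1 (chr19:5795690-5802671, minus strand) is an unspliced RNA of 6982 bases and lies 39630 bases from Neat1 on the same strand. The Neat1 row covers chr19:5842302-5845478, which is 3177 bases long, whereas the longest Neat1 transcript in GENCODE has 20771 bases, so the values describe the region of the short form alone. Miat (chr5:112642248-112657968, minus strand) has 7 exons and a spliced length of 8760 bases. Meg3 (chr12:110779206-110809939), Rian (chr12:110842155-110899921) and Mirg (chr12:110973191-110987667) follow each other on the plus strand, with 32215 bases between Meg3 and Rian and 73269 bases between Rian and Mirg. Tug1 (chr11:3539797-3548811, minus strand) starts 686 bases from the start of Morc2a, which is read the other way. Six3os1 (chr17:86001272-86017736, minus strand) starts 2438 bases from the start of Six3, the homeobox gene of eye development, which is read in the opposite direction. Snhg11 (chr2:158201374-158211881, plus strand) is a small nucleolar RNA host gene, and GENCODE lists it as protein coding.

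The sequences of some members bear on how they were measured and on what they bind. The last exon of Miat, from 112642248 to 112649255 on chr5, holds all 6 copies of the 7-base word TACTAAC found in its spliced transcript, a word that is the branch point sequence of introns in yeast and is bound by the splicing factor Sf1. Of these, 3 stood within a stretch of 100 bases, chr5:112645754-112645853, shown here from mm9 with the word in capitals.
Miat last exon: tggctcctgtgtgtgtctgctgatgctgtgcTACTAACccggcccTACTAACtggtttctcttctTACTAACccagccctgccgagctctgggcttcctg
On the sense strand, the word was found in 149 of 53586 windows of 100 bases, or 0.278%, over the longest transcripts of 3845 noncoding genes in GENCODE. Of 1906 such genes with 1000 or more bases, the 1 with 6 or more copies was Miat itself, counted without regard to transcript length. Among the members Neat1 had 1 copy and the remaining 7 had 0.

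Further stretches, also on the minus strand of mm9, show the 3′ ends of the nuclear RNAs, because the libraries were made from RNA selected by poly(A). Near the end of Malat1, a run of 12 adenines is encoded in the genome (capitals, in the stretch chr19:5795961-5796059), followed by the small tRNA-like RNA that is cut from the transcript. The row of Neat1 ended with the signal AATAAA (capitals), which precedes a poly(A) tail, at chr19:5842302-5842361.
Malat1 3′ region: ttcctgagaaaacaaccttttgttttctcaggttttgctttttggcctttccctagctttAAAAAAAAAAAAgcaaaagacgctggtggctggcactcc
Neat1 end of row: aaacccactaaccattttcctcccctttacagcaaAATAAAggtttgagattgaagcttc

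The promoter table of RefSeq (GRCm38.p6, from 250 bases before to 50 bases after each start) held 8 of the 9 members, and Neat1 was the one not matched. The words searched on both strands were TAATCC, the core of sites bound by the photoreceptor factor Crx, TGACGTCA, the cAMP response element, and TATAAA, the TATA box. TAATCC was found in none of the members' promoters and in 7.06% of 32851 promoters. The upstream promoter of Meg3 (chr12:109540746-109541045, plus strand) held TGACGTCA, found in 1.79% of all promoters, and 2 overlapping matches to TATAAA, one on each strand, found in 13.6%; no other member's promoter held either word. This promoter is shown, with the matches in capitals, because it was the one member promoter that held any of the words.
Meg3 promoter: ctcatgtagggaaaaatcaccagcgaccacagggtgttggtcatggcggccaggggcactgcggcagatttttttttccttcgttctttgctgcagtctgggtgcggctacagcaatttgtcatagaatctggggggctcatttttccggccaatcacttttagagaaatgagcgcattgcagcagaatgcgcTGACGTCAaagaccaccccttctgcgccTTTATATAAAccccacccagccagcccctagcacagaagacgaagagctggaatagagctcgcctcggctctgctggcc

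Expression was measured as FPKM, fragments per kilobase of transcript scaled to the number of mapped fragments, which is a level per length and can be set side by side between genes. The error given is the pair of confidence bounds that Cufflinks wrote for each value. These bounds cover counting and isoform assignment within 1 library and not the spread between animals, so no test between conditions was possible. A member was called higher or lower where FPKM + 1 differed by 1.5-fold or more between 2 libraries, and the share of all genes called in that direction is given beside the count. Genes near 0 in both libraries cannot be called on this scale, yet they count in the share. Of all genes, 13413 reached 1 FPKM in at least 1 library. All 72 values of the members were marked OK in the tables, and 1 of them, Meg3 at E18, lay outside its own bounds.

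The depth of the libraries, read from the steps of low values, was 0.965 to 1.62 times that of the E18 library, and 11153 to 12415 genes reached an FPKM of 1. Nt5e was higher in Cd73PC at every stage, with FPKM of 97.3, 131 and 124 at P2, P5 and P8 against 2.43, 31.4 and 9.38 in Cd73NC. Cd73NC also held rod markers, with 50.4, 798 and 756 FPKM summed over 6 genes at P2, P5 and P8 against 3178, 6949 and 11517 in Cd73PC. Together the members took 0.115% of the summed FPKM at E18 and 0.0221% in P8 Cd73PC.

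**Figure D1:**
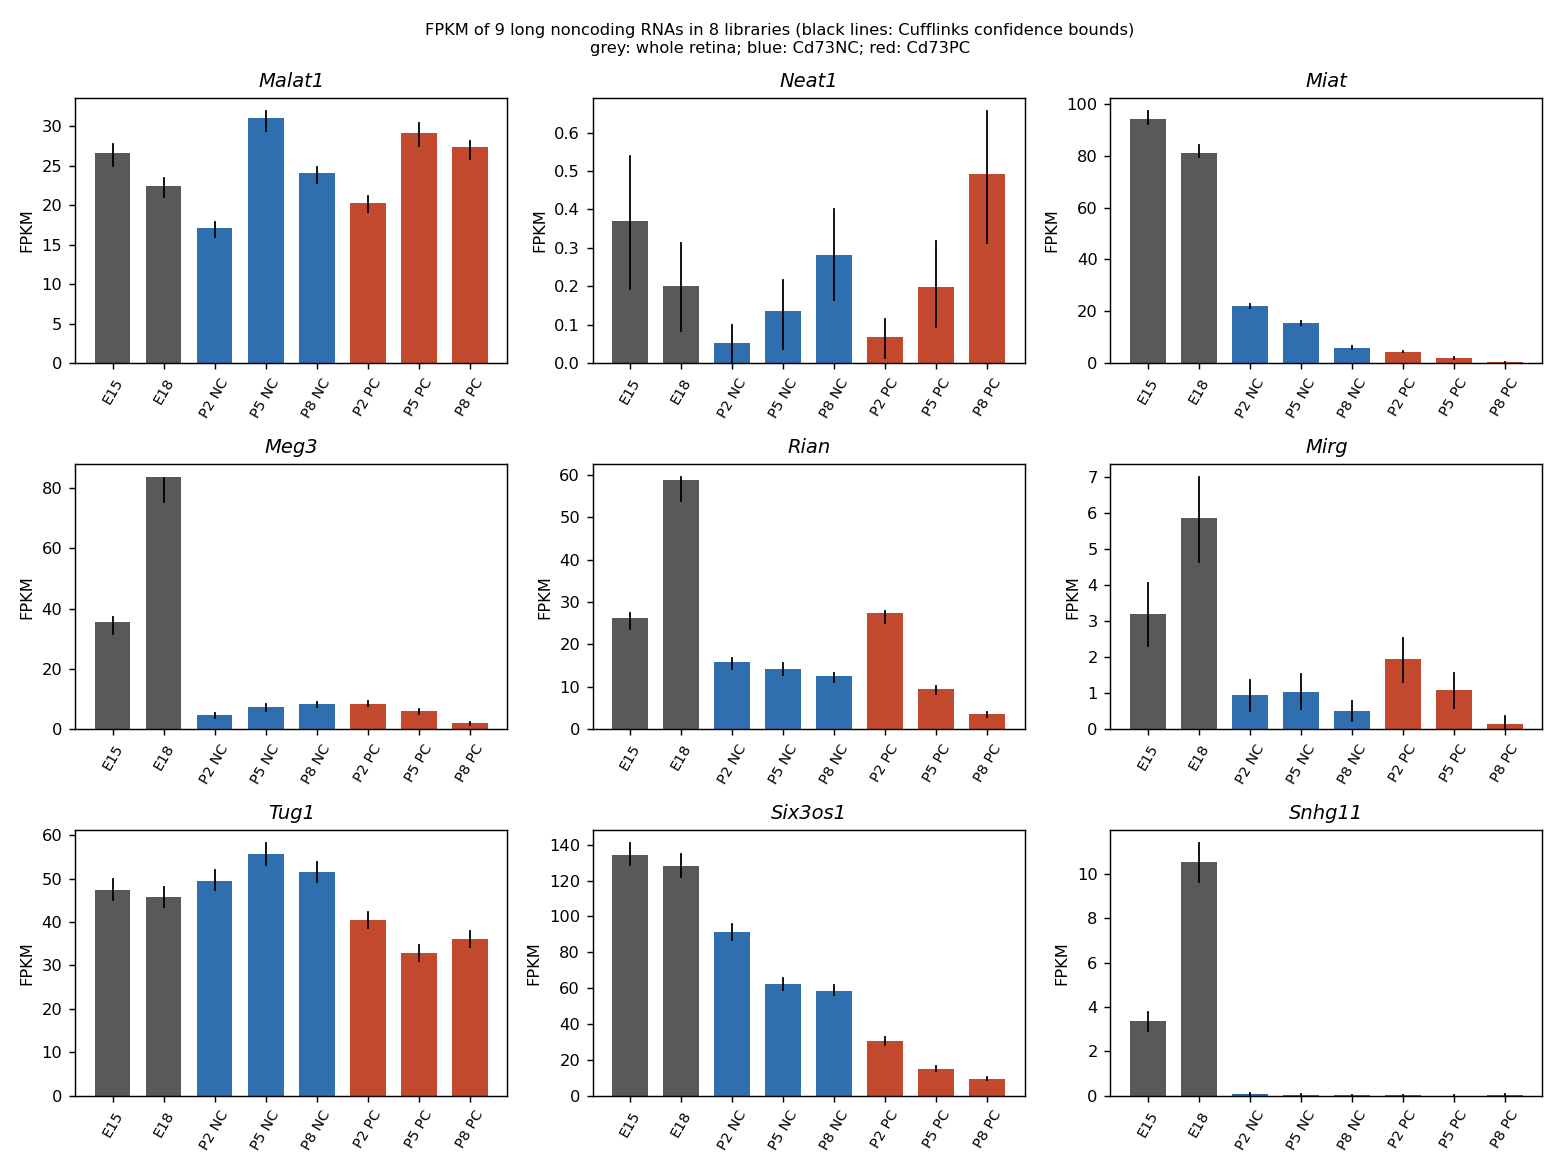
FPKM of each of the 9 members (vertical axes, 1 scale per gene) in the 8 libraries (horizontal axes); bars are grey for whole retina, blue for Cd73NC and red for Cd73PC, and black lines are the Cufflinks confidence bounds. Miat and Six3os1 were highest at E15 and lowest in P8 Cd73PC, Meg3, Rian, Mirg and Snhg11 were highest at E18, and the highest value was 1.82 times the lowest for Malat1 and 1.70 times for Tug1.

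Between the sorted fractions, Miat and Six3os1 were lower in Cd73PC than in Cd73NC at P2, P5 and P8. The RNAs of the Dlk1-Dio3 region were higher in Cd73PC at P2, and Meg3 and Rian were lower there at P8. At P2, 3 of the 9 members were called higher in Cd73PC (Meg3, Rian and Mirg), where 8.56% of all genes were, and 2 lower (Miat and Six3os1), where 14.4% were. At P5, none was called higher (7.02% of genes) and 3 were called lower, Miat, Tug1 and Six3os1 (15.5% of genes). At P8, none was called higher (7.54% of genes) and 4 were called lower, Miat, Meg3, Rian and Six3os1 (18.6% of genes). In bulk RNA, fewer cells of a type and less RNA per cell cannot be told apart, which holds for every difference given here. The median log2(FPKM + 1) difference over the 9 members was 0.02, -0.27 and -0.50 at P2, P5 and P8, and that over all genes was 0, 0 and -0.02. Over the 13413 genes that reached 1 FPKM in at least 1 library, the median was -0.13, -0.17 and -0.22.

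**Figure D2:**
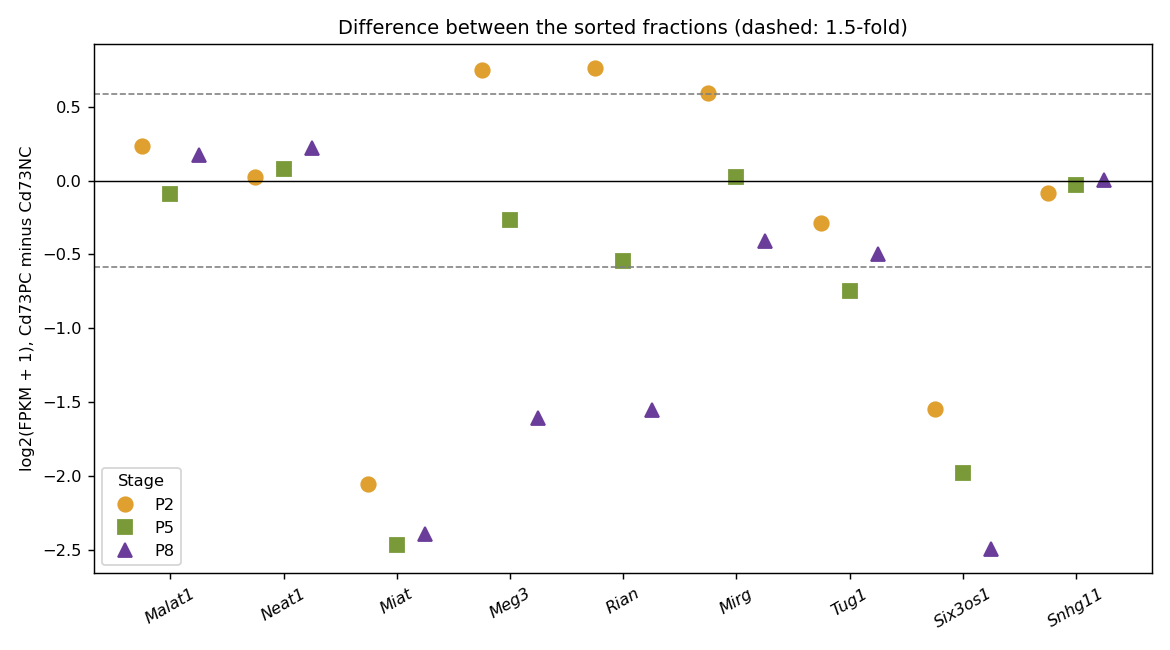
Difference in log2(FPKM + 1) between Cd73PC and Cd73NC (vertical axis) for each member (horizontal axis) at P2 (circles), P5 (squares) and P8 (triangles), each from 1 library per fraction; dashed lines mark 1.5-fold. Miat and Six3os1 lie below the lower line at all 3 stages, Meg3 and Rian lie above the upper line at P2 and below the lower line at P8, and Snhg11, Neat1 and Malat1 stay between the lines.

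Miat is a nuclear RNA of neurons and retinal precursors and had the widest range of log2(FPKM + 1) among the members. Its FPKM was 94.0 at E15 and 81.1 at E18, then 21.9, 15.6 and 6.05 in Cd73NC and 4.51, 2.00 and 0.343 in Cd73PC at P2, P5 and P8. All 8 values were apart by their bounds, the whole retinas were highest, and each Cd73PC value lay below each Cd73NC value, since the highest of the former, at P2, was under the lowest of the latter, at P8. On the FPKM scale Miat was 4.86-fold, 7.81-fold and 17.6-fold lower in Cd73PC at P2, P5 and P8. The differences of log2(FPKM + 1) were -2.06, -2.47 and -2.39, and the pseudocount weighs most on the last, where Cd73PC was under 1 FPKM. The highest FPKM was 274 times the lowest, against 2849 times for Snhg11, whose lowest values were near 0, and the range of log2(FPKM + 1) was larger than that of 99.3% of the 12360 genes with a mean FPKM of at least 1.

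The genes with the profile nearest to that of Miat over the 8 libraries, by the root mean square difference of centred log2(FPKM + 1), were Elavl3 (0.52), an RNA binding protein of neurons, Nsg2 (0.54), a neuronal vesicle protein, and Neurog2 (0.57), a proneural transcription factor. Elavl3 had FPKM of 70.2 at E15, 48.0 at E18, 33.5, 11.8 and 3.29 in Cd73NC and 7.74, 2.20 and 0.531 in Cd73PC. Of 4 proteins reported to bind Miat, 2 (Qk and Srsf1), 1 (Qk) and 2 (Qk and Celf3) were lower in Cd73PC past 1.5-fold at P2, P5 and P8 and none was higher. The splicing factor Sf1, which binds the word TACTAAC, was at 61.2, 57.7 and 57.3 FPKM in Cd73PC and 76.7, 74.7 and 71.1 in Cd73NC, within 1.5-fold at each stage. Between the fractions, progenitor markers went the same way as Miat. At each stage 5 of 5 (Mki67, Top2a, Ccnd1, Fgf15 and Sfrp2) were lower in Cd73PC. Their summed FPKM was 360, 97.1 and 11.7 against 1445, 317 and 55.1 in Cd73NC. From E18, where the sum was 1636, to P2 Cd73NC, Miat was 3.70-fold lower and 2 of the 5 markers were called lower. From P2 to P5 in Cd73NC, all 5 were called lower and Miat was within 1.5-fold. Miat and all 5 were called lower from E18 to P2 Cd73PC, in both later Cd73PC steps, and from P5 to P8 in Cd73NC. The part of progenitors in the values of Miat was not tested.

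Six3os1 is transcribed away from Six3 in the developing eye. It was the most abundant member in both whole retinas, at 134 FPKM at E15 and 128 FPKM at E18, which overlapped by their bounds. Cd73NC held 91.1, 62.2 and 58.6 FPKM and Cd73PC 30.6, 15.0 and 9.54 FPKM at P2, P5 and P8. Every Cd73PC value lay below every Cd73NC value, and the bounds of the fractions were apart at each stage. On the FPKM scale Six3os1 was 2.98-fold, 4.15-fold and 6.13-fold lower in Cd73PC, with log2(FPKM + 1) differences of -1.54, -1.98 and -2.50. Between the fractions, Müller glia markers mostly went the same way. Of 5 (Rlbp1, Glul, Slc1a3, Apoe and Aqp4), 3, 4 and 5 were called lower in Cd73PC at P2, P5 and P8. At P2 Apoe went the other way within 1.5-fold, at 162 FPKM in Cd73PC against 110 in Cd73NC. The summed FPKM of the 5 markers was 360, 348 and 294 against 601, 1178 and 1024 in Cd73NC. Over age they did not follow Six3os1, with sums of 267 at E15 and 384 at E18, below each Cd73NC sum. The progenitor markers given above were also lower in Cd73PC. The part of Müller glia and progenitors was not tested. Within Cd73PC Six3os1 was lower at each later stage, whereas in Cd73NC the P5 and P8 values overlapped by their bounds.

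Six3 itself had FPKM of 101 at E15 and 91.8 at E18, then 96.5, 70.9 and 61.2 in Cd73NC and 43.2, 21.9 and 14.2 in Cd73PC. It was thus also lower in Cd73PC at each stage. The ratio of Six3os1 to Six3 within a library, which does not depend on scaling between libraries, was 1.33 at E15 and 1.40 at E18. It was 0.945, 0.878 and 0.957 in Cd73NC and 0.709, 0.685 and 0.671 in Cd73PC at P2, P5 and P8. The ratio was therefore highest in whole retina, intermediate in Cd73NC and lowest in Cd73PC, and its spread over the stages of a fraction was smaller than the gap between the fractions. The rows of the tables for Six3os1 and Six3 do not overlap, but GENCODE gives Six3 forms that reach into Six3os1, and the library kit does not mark strand, so reads from such forms cannot be told apart. The same limit holds for Malat1, Meg3 and Mirg, whose spans overlap the opposite-strand GENCODE genes Gm20417, Gm17639 and AC121784.1.

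The genes nearest to Six3os1 in profile were Kcnk1, a potassium channel, Adam11, a membrane protein of neurons, and Nr2f1, a nuclear receptor of retinal patterning, each with a root mean square difference of 0.18 to 0.19. Of 6 genes listed as Six3os1 partners (Six3, its coactivators Eya1 to Eya4, and the H3K27 methyltransferase Ezh2), 2, 4 and 4 were lower in Cd73PC at P2, P5 and P8. Ezh2 was at 49.1, 21.5 and 13.3 FPKM in Cd73PC and 82.1, 43.3 and 32.3 in Cd73NC. Eya3 went the other way at P5 and P8, at 20.2 and 22.8 FPKM in Cd73PC and 11.8 and 8.66 in Cd73NC.

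Meg3, Rian and Mirg were higher at E18 than at E15 and lower in both P2 fractions than at E18. The bounds of P2 Cd73PC overlapped those of E15 for Rian and Mirg and not for Meg3. Meg3, which restrains cell growth in many tissues, was at 35.5 FPKM at E15 and 83.6 at E18, then 4.69, 7.36 and 8.29 in Cd73NC and 8.54, 5.95 and 2.05 in Cd73PC. Rian, a host of small nucleolar RNAs, was at 26.3 and 58.6 FPKM in the whole retinas, then 15.8, 14.3 and 12.5 in Cd73NC and 27.5, 9.50 and 3.59 in Cd73PC. Mirg, a host of microRNAs, was at 3.19 and 5.86 FPKM, then 0.953, 1.05 and 0.520 in Cd73NC and 1.94, 1.08 and 0.143 in Cd73PC. All 3 were lower at each later stage in Cd73PC, with overlapping bounds for Mirg between P2 and P5, whereas in Cd73NC the 3 stages of Rian and Mirg overlapped with their neighbours in age and Meg3 was lowest at P2.

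At P2, Meg3 was 1.82-fold, Rian 1.74-fold and Mirg 2.04-fold higher in Cd73PC on the FPKM scale, with log2(FPKM + 1) differences of 0.75, 0.76 and 0.59. The bounds were apart for Meg3 and Rian and overlapped for Mirg, which was near the threshold. At P8 the log2(FPKM + 1) differences were -1.61 for Meg3, -1.56 for Rian and -0.41 for Mirg, and the bounds again overlapped for Mirg. At P5 Rian was lower in Cd73PC with bounds apart but its difference of log2(FPKM + 1), -0.54, did not reach the threshold, and Meg3 and Mirg overlapped between the fractions. Of the microglial markers Cx3cr1, Csf1r and Aif1, 3 of 3 were called higher in P2 Cd73PC, with summed FPKM of 10.2 against 1.86. All 3 were lower by value in P5 and P8 Cd73PC. Of the 3, 2 were called lower at P5, with sums of 9.06 against 15.7, and 1 at P8, with 29.8 against 38.8. The 5 Müller glia and 5 progenitor markers were all lower in P8 Cd73PC, with the sums given above. The part of these cells was not tested. Whether the difference between the fractions itself changed from P2 to P8 was not tested, since each stage had 1 library per fraction.

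Within a library, the 3 RNAs did not keep a fixed proportion. The FPKM ratio of Rian to Meg3 was 0.739 at E15 and 0.701 at E18, then 3.37, 1.94 and 1.51 in Cd73NC and 3.22, 1.60 and 1.75 in Cd73PC at P2, P5 and P8. Meg3 was thus the more abundant of the pair in whole retina and the less abundant in all 6 sorted libraries, and at each stage the 2 fractions were closer to each other than to whole retina. The ratio of Mirg to Meg3 was 0.0898 and 0.0700 in whole retina, 0.203, 0.143 and 0.0628 in Cd73NC and 0.227, 0.182 and 0.0697 in Cd73PC. It was highest at P2 in both fractions and, at P8, close to that of the whole retinas. These ratios rest on 1 library each, and those with Mirg rest on its wide bounds. Reads of the opposite-strand genes that overlap Meg3 and Mirg cannot be told apart in them.

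**Figure D3:**
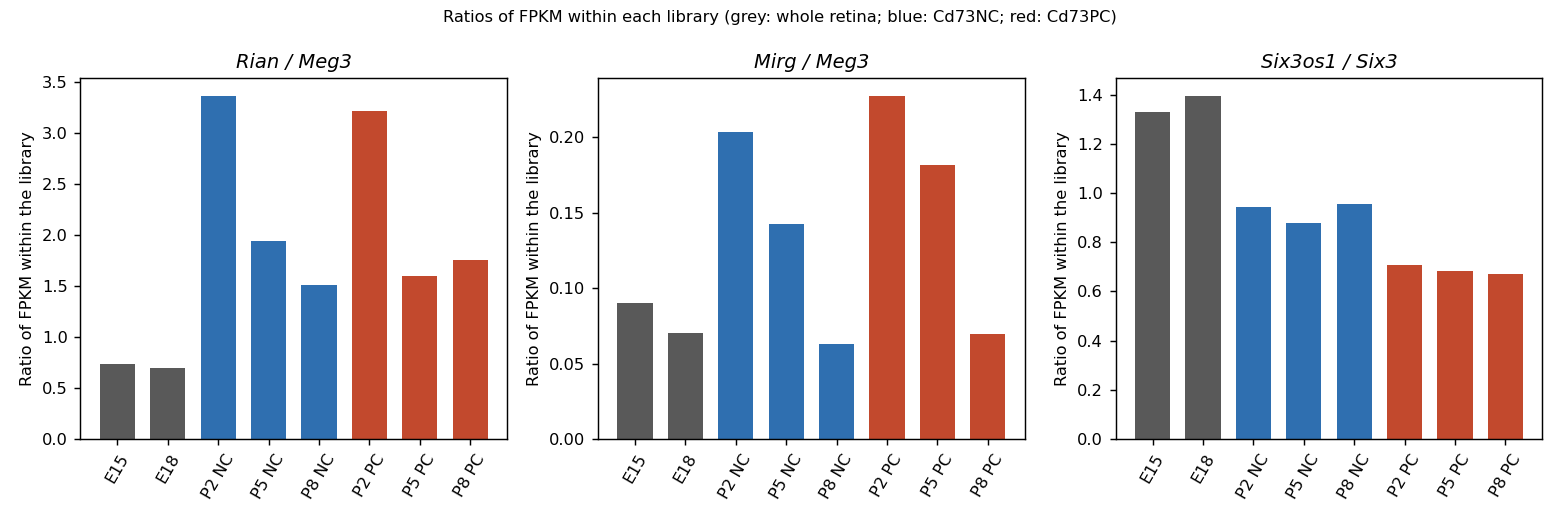
Ratio of FPKM within each library (vertical axes) for Rian to Meg3, Mirg to Meg3 and Six3os1 to Six3 (left to right) in the 8 libraries (horizontal axes); grey, whole retina; blue, Cd73NC; red, Cd73PC. Rian to Meg3 is under 1 in the whole retinas and between 1.51 and 3.37 in the sorted libraries, and Six3os1 to Six3 is highest in whole retina and lowest in Cd73PC.

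The genes nearest in profile were Rgs4 (0.33), a regulator of G protein signalling, Pou4f3 (0.53), a ganglion cell transcription factor, and Kitl (0.55), the ligand of Kit, for Meg3. For Rian they were Hif3a (0.26), Rab13 (0.36) and Wsb1 (0.38), and for Mirg they were Rab13 (0.22), Gm5577 (0.27) and Net1 (0.28). Hif3a, a hypoxia-inducible factor subunit, had FPKM of 4.79 at E15, 10.0 at E18, 2.20, 1.40 and 0.909 in Cd73NC and 3.96, 0.901 and 0.214 in Cd73PC. It was higher in Cd73PC at P2 and lower at P8, where both values were under 1 FPKM. Since Hif3a was chosen for its likeness to Rian over these same libraries, the shared direction is not separate evidence.

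Dlk1, Rtl1 and Dio3, the protein-coding genes expressed from the paternal chromosome of the region, had another course. Rtl1, a retrotransposon-derived gene, was at 0.0672 FPKM or less in every library, and Dlk1, a Notch ligand family member, was at 3.22 FPKM in P5 Cd73NC and at 0.731 or less elsewhere. Dio3, which inactivates thyroid hormone, was highest at E15, at 26.3 FPKM, and 16.0 at E18, 10.4 in P2 Cd73NC and 1.72 in P2 Cd73PC. Of 6 genes in and beside the region, 2 (Dio3 and Begain), 2 (Dlk1 and Begain) and 1 (Begain) were lower in Cd73PC at P2, P5 and P8 and none was higher.

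The tables also list microRNA genes inside these hosts, although the libraries were made from size-selected fragments of poly(A) RNA and not from small RNA. Meg3 spanned 2 such rows, with 12 of 16 values above 0, Rian 3 rows, all listed at 0 in every library, and Mirg 10 rows, of which 6 were listed at 0 in every library. A read in such a row cannot be told apart from a read of the host. RefSeq gives 3 mature forms within Meg3, 6 within Rian and 19 within Mirg (GRCm38.p6). A single seed, bases 2 to 8, was shared by 2 mature forms, both from Mirg, shown with the seed in capitals because they are the one such pair of the region's hosts.
mmu-miR-453: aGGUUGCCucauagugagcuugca
mmu-miR-496a-5p: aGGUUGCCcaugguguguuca

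Snhg11 was nearly restricted to the whole retinas. Its FPKM was 3.36 at E15 and 10.6 at E18, then 0.0655, 0.0242 and 0.0167 in Cd73NC and 0.00693, 0.00370 and 0.0206 in Cd73PC. The bounds of the whole retinas were apart from each other and from those of all sorted libraries, whereas 5 of the 6 sorted values had a lower bound of 0, the exception being P2 Cd73NC. The fractions were therefore not separable at P5 and P8, and at P2 the bounds were apart at levels under 0.1 FPKM. The genes nearest to it were Stk32c (0.23), a kinase, Pou4f3 (0.24) and Chrnb3 (0.27), a nicotinic receptor subunit. Pou4f3 had FPKM of 6.21 at E15 and 11.7 at E18, 0.249 in P2 Cd73NC and 0.0434 in P2 Cd73PC, and it was listed at 0 in the remaining 4 libraries.

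From E15 to E18, 4 of the 9 members were called higher, Meg3, Rian, Mirg and Snhg11, where 4.61% of all genes were, and none lower, where 2.09% were. Their log2(FPKM + 1) differences were 1.21, 1.13, 0.71 and 1.40, each with bounds apart. Miat and Malat1 were within 1.5-fold with lower values at E18 and bounds apart, and Tug1, Six3os1 and Neat1 overlapped.

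Between E18 whole retina and P2 Cd73NC, 5 members were called lower, Miat, Meg3, Rian, Mirg and Snhg11 (8.21% of genes), and none higher (3.2% of genes). Between E18 and P2 Cd73PC, 6 were called lower, the same 5 and Six3os1 (18.3% of genes), and none higher (8.78% of genes). Meg3 was 17.8-fold and 9.79-fold lower than at E18 in P2 Cd73NC and P2 Cd73PC, and Miat 3.70-fold and 18.0-fold lower. Rian differed less, by 3.71-fold and 2.13-fold. Both comparisons share the E18 library.

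Ganglion cell markers moved with this step. All 5 of 5 (Pou4f1, Pou4f2, Isl1, Nefl and Sncg) were lower in both P2 fractions than at E18, and their summed FPKM was 830 at E15, 487 at E18, 15.8 in P2 Cd73NC and 4.80 in P2 Cd73PC. Without Isl1, which bipolar cells also express, the sum was 760 at E15, 461 at E18, 11.0 and 4.03 in the P2 fractions and 0.577 to 1.15 at P5 and P8. The 3 horizontal cell markers were lower in both P2 fractions as well, with sums of 6.78 at E18, 1.29 in Cd73NC and 2.18 in Cd73PC. Of the 5 ganglion cell markers, 4 were called lower at E18 than at E15, whereas Meg3, Rian, Mirg and Snhg11 were called higher. Pou4f1, the remaining marker, was at 28.0 FPKM at E15 and 26.9 at E18. Xist, the RNA of X inactivation, was also lower in the P2 fractions, at 1.96 and 3.46 FPKM against 34.7 at E18. The share of female animals in each library was not examined. The part of these cells, of the dissociation and of the sort in the values of the members was not tested.

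**Figure D4:**
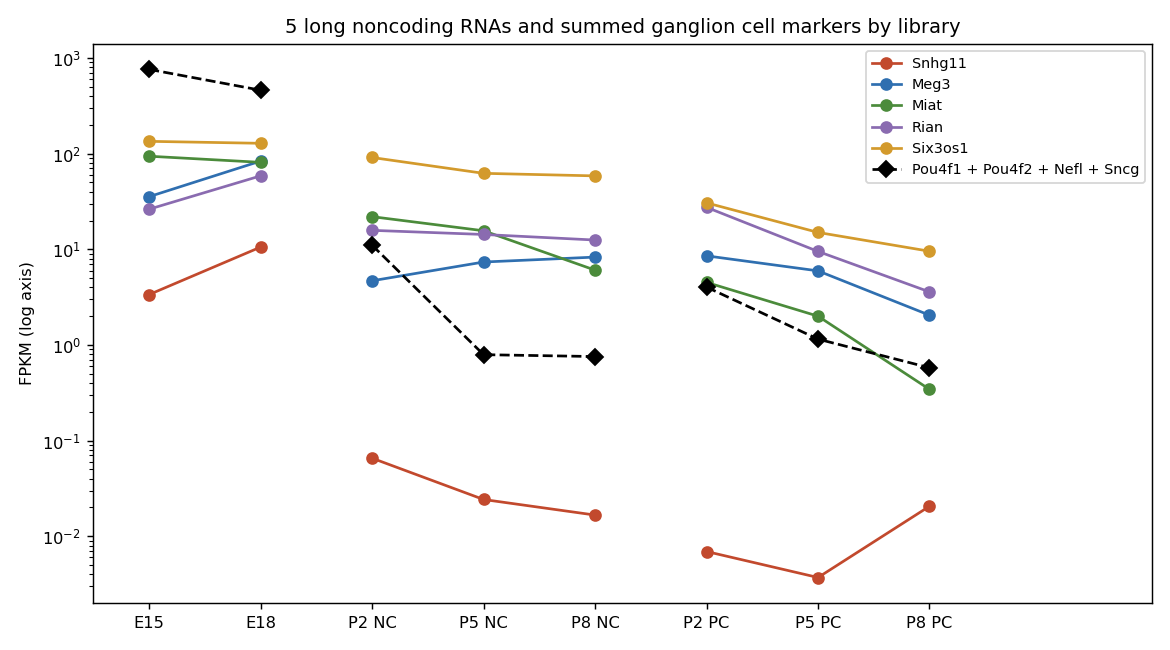
FPKM on a log axis (vertical) of Snhg11, Meg3, Miat, Rian and Six3os1, and the summed FPKM of the ganglion cell markers Pou4f1, Pou4f2, Nefl and Sncg (black diamonds), in the 8 libraries (horizontal); lines join libraries of the same kind. The marker sum went from 461 at E18 to 11.0 and 4.03 in the P2 fractions, Snhg11 from 10.6 to 0.0655 and 0.00693, and Six3os1 from 128 to 91.1 and 30.6.

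Within Cd73NC, Malat1 alone was called higher from P2 to P5 (7.93% of genes) with none lower (9.52% of genes), and from P5 to P8 Miat alone was called lower (7.78% of genes) with none higher (8.47% of genes). Within Cd73PC, Miat, Rian and Six3os1 were called lower from P2 to P5 (8.58% of genes) and Miat, Meg3, Rian, Mirg and Six3os1 from P5 to P8 (4.78% of genes). No member was called higher in Cd73PC in either step (3.36% and 3.31% of genes). Between P5 and P8 the differences of log2(FPKM + 1) in Cd73PC were -1.16 for Miat, -1.19 for Meg3, -1.19 for Rian, -0.87 for Mirg and -0.60 for Six3os1, each with bounds apart. The last was just past the threshold, and it was no longer called with scaling by the upper quartile or by quantiles.

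Malat1 and Tug1 were present in every library and had smaller ranges of log2(FPKM + 1), 0.83 and 0.74, than the other members with a mean FPKM of at least 1, although Malat1 was called higher from P2 to P5 in Cd73NC and Tug1 lower in P5 Cd73PC. Malat1, an abundant RNA of nuclear speckles, was at 26.6 FPKM at E15, 22.5 at E18, 17.1, 31.1 and 24.1 in Cd73NC and 20.3, 29.1 and 27.3 in Cd73PC. It was lowest at P2 and highest at P5 in both fractions, but in Cd73PC the bounds of P5 and P8 overlapped. The highest value was 1.82 times the lowest. For P2, P5 and P8 in turn, the fractions differed by 0.24, -0.09 and 0.17 in log2(FPKM + 1), and the sign at P5 turned to 0.03 with upper quartile scaling. Wbp7, Pigv and Pom121 were the genes nearest to it in profile (0.12 to 0.13).

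Tug1, which was first described as an RNA induced by taurine in the retina and needed for photoreceptors, was at 47.3 FPKM at E15, 45.7 at E18, 49.5, 55.6 and 51.5 in Cd73NC and 40.4, 32.8 and 36.2 in Cd73PC. Each Cd73PC value lay below all other values, with bounds apart from Cd73NC at all 3 stages. The FPKM was 1.23-fold, 1.70-fold and 1.43-fold lower in Cd73PC, and of the log2(FPKM + 1) differences of -0.29, -0.74 and -0.50 the one at P5 passed 1.5-fold. Morc2a, its neighbour, was at 13.7, 13.8 and 15.9 FPKM in Cd73PC and 12.3, 17.2 and 19.7 in Cd73NC, within 1.5-fold at each stage. Of 8 genes listed as neighbours of members, 2, 3 and 4 were lower in Cd73PC at P2, P5 and P8, Six3 and Six2 at each stage, and none was higher. Ercc5 (0.06), Fbxw11 (0.07) and Eif2s3x (0.07) were nearest to Tug1 in profile. The range of log2(FPKM + 1) of Tug1 was larger than that of 23.2% of genes and that of Malat1 larger than that of 28.8%.

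Neat1 was the least abundant member in both whole retinas. Its FPKM was 0.369 at E15, 0.200 at E18, 0.0527, 0.136 and 0.280 in Cd73NC and 0.0689, 0.199 and 0.491 in Cd73PC. It was higher at each later stage in both fractions, but the bounds of neighbouring stages and of the fractions overlapped throughout. The bounds at P2 and P8 were apart, at 0 to 0.0987 and 0.166 to 0.401 FPKM in Cd73NC and at 0.0129 to 0.116 and 0.312 to 0.657 FPKM in Cd73PC. Lig4, 1700021K19Rik and Mtor were the genes nearest to it in profile (0.07 to 0.08), where the pseudocount leaves little range. By contrast, 7 of 7 paraspeckle proteins were present at 20.9 FPKM or more in every library, and 5, 3 and 4 of them were lower in Cd73PC at P2, P5 and P8, for example Nono at 170, 110 and 89.4 FPKM against 279, 199 and 178. Of 6 speckle and splicing proteins, 3, 1 and 1 were lower in Cd73PC and none was higher, and Srsf2 was lower at all 3 stages.

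A wider list of long noncoding RNAs was read in the same way, and 32 of 52 listed genes were found. Between Cd73PC and Cd73NC, the numbers called higher were 7, 6 and 9 and those called lower 6, 4 and 7 for P2, P5 and P8. Of all genes, 8.56%, 7.02% and 7.54% were called higher and 14.4%, 15.5% and 18.6% lower. These shares apply to each list counted between the fractions. Of the 32 genes, 24, 23 and 21 reached 1 FPKM in at least 1 fraction. The list held Rmrp and Terc, which the shares leave out as small RNAs. Of 11 small nucleolar RNA hosts, a group to which Snhg11 belongs by name, 2, 3 and 4 were higher in Cd73PC and 1, 0 and 2 were lower. Snhg12 was higher at all 3 stages, at 21.5, 24.2 and 30.3 FPKM in Cd73PC and 12.7, 14.0 and 13.7 in Cd73NC. Gas5, which is induced on growth arrest, was within 1.5-fold at P2 and P5 and called lower at P8, at 4.02 against 6.80 FPKM.

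H19, a maternally expressed imprinted RNA of another chromosome, was at 349 FPKM in P2 Cd73PC and at 12.5 to 128 in the other 7 libraries. It was 51.7 in P2 Cd73NC, so H19 as well as Meg3, Rian and Mirg was higher in Cd73PC at P2, and at P8 it was lower there, at 12.5 against 34.4. Peg13, an imprinted RNA expressed from the paternal chromosome, was at 28.6, 42.1 and 51.3 FPKM in Cd73PC and 20.9, 30.2 and 40.2 in Cd73NC, within 1.5-fold at each stage. Of 9 other RNAs beside or across developmental transcription factor genes, the numbers called higher in Cd73PC were 1, 2 and 2 and those called lower 3, 2 and 3 for P2, P5 and P8. Pax6os1 and Sox2ot were called lower at all 3 stages, as Six3os1 was. Otx2os1 was higher in Cd73PC at P2, at 4.93 against 0.299 FPKM, and lower at P8, at 11.7 against 30.3. Vax2os1 and Vax2os2 were called higher in Cd73PC at P5 and P8, the former at 4.43 and 6.39 FPKM against 1.67 and 1.47 and the latter at 1.49 and 2.73 against 0.401 and 0.736.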

How the data were processed

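Libraries were made with the Illumina mRNA-Seq kit from poly(A)-selected RNA, which does not mark strand, and read as 36-base single ends. The authors mapped reads to mm9 and deposited, for each library, a table of gene FPKM with confidence bounds; the submitters' processing notes name CASAVA 1.8.2, bcl2fastq 1.8.4, TopHat2 2.0.8b and Cufflinks 2.1.1. Rows were matched by symbol and position. From the 23021 rows, 788 small RNA rows were left out and rows of 235 symbols with more than 1 row were summed, leaving 21827 genes, of which 20 had a missing value in at least 1 library, and the share called was taken over the 21814 to 21819 genes with both values. Differences are log2(FPKM + 1), called at 1.5-fold; with 1 library per condition no p-value was computed. The members and lists were chosen with earlier results of these data known. Named genes were all members, for each member the 3 genes nearest in profile among 12332 genes with a mean FPKM of at least 1, and genes of fixed lists. A further marker list is not reported here. The calling and scaling steps were tested on simulated data. Sequences were read from NCBIM37 with GENCODE M1, or from RefSeq (GRCm38.p6). Python 3.11.15, pandas 2.3.3, numpy 2.4.6, pysam 0.24.0 and matplotlib 3.10.9 were used. Alternatives were the pseudocount, a filter on low values, upper quartile and quantile scaling, unsummed rows, small RNAs kept, a 2-fold threshold and bounds apart.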

Additional observations from a re-analysis of the deposited data

Results flagged for a closer look

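Meg3 and Rian differed between the fractions in opposite directions at P2 and P8. Taking Cd73NC from Cd73PC on the log2(FPKM + 1) scale gave 0.75 for Meg3 and 0.76 for Rian at P2, and -1.61 and -1.56 at P8. The bounds of the fractions were apart for both RNAs at both stages. Each value rests on 1 library per fraction, and the difference between the stages was not tested. Of 3 microglial markers, 3 were called higher in Cd73PC at P2, with summed FPKM of 10.2 against 1.86. At P8 all 3 were lower there by value and 1 was called lower, with sums of 29.8 against 38.8. All 5 Müller glia markers were lower in Cd73PC at P8, with 294 against 1024. Their part in the result was not tested.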

How the results depend on the processing

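No paired analysis was possible because each condition had 1 library, and for the same reason no replicate could be left out. The low-value filter, unsummed rows, kept small RNAs and the demand that bounds be apart left every count of called members within 1.5 times its value, and no difference between the fractions that was called changed sign. A pseudocount of 0 gave 5 members lower at P5 in Cd73PC against Cd73NC, 1 lower at E18 against E15, 1 lower from P2 to P5 in Cd73NC, 5 lower from P2 to P5 in Cd73PC and 2 higher from P5 to P8 in Cd73PC. Pseudocounts of 0 and 0.1 both gave 1 higher at P8 in Cd73PC against Cd73NC (Neat1, as did quantile scaling, with 1), 3 higher from P2 to P5 in Cd73NC, 1 higher and 2 lower from P5 to P8 in Cd73NC and 1 higher from P2 to P5 in Cd73PC; with 0.1, 1 was lower at E18 against E15 and 1 higher from P5 to P8 in Cd73PC. Upper quartile and quantile scaling gave 2 higher from P2 to P5 in Cd73NC. A 2-fold threshold gave 0 higher at P2 in Cd73PC against Cd73NC, 0 higher from P2 to P5 in Cd73NC, and in Cd73PC 1 lower from P2 to P5 and 3 lower from P5 to P8. The cause of these changes was not tested. Between the fractions, a pseudocount of 0 moved the log2 difference to -3.24 (P2) and -2.71 (P5) for Snhg11, and at P8 to 0.81 for Neat1, -4.14 for Miat and -1.87 for Mirg; with 0.1, Miat was at -3.80 and Mirg at -1.35. Quantile scaling shifted the median of 13413 expressed genes by 0.17 at P5 and 0.24 at P8 between the fractions, by 0.17 from E18 to P2 Cd73PC and by 0.13 from P2 to P5 in Cd73PC, and at P5 it moved Meg3 from -0.27 to 0.03. The sorted values of Snhg11 and Neat1 lay under 0.5 FPKM, and there the bounds of the fractions overlapped at every stage except for Snhg11 at P2.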
